A study of Homo sapiens with 10 samples.

Results

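The genes described here encode the proteasome, its regulators and the factors that assemble it. They were the protein-coding genes of GENCODE 44 whose symbol begins with PSMA to PSMG and a number, with POMP, ADRM1 and SEM1 added by name. The rule gave 53 genes of 78894 rows in the table, of which 61463 were found in GENCODE 44 and 20039 were protein-coding. By role, 19 genes encode the 20S core, 19 the 19S cap and 8 the assembly chaperones, 6 were grouped as alternative activators, their partners and an inhibitor, and PSMC3IP matched the rule by its name only. The cells were HEK293T, an established human embryonic kidney line that carries the SV40 large T antigen, kept for 24 h in one of 3 media. The groups were cysteine-free medium (0X, 2 libraries), complete medium (1X, 4 libraries) and medium with excess cysteine (10X, 4 libraries), and the labels number the libraries of each medium as biological replicates. All groups were the same unmodified line, no other agent was named in the labels, and a single line limits what the groups can stand for.

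The proteasome is the cell's main ATP-dependent protease. Proteins marked with ubiquitin chains are captured by the 19S cap, stripped of ubiquitin, unfolded by a ring of ATPases and threaded into the 20S core, a barrel of outer alpha rings and inner beta rings in which PSMB5, PSMB6 and PSMB7 carry the active sites. Dedicated chaperones build the core and the base of the cap, and other activators can replace the cap. When proteasome activity falls, the transcription factor NFE2L1 is known to raise the transcription of the subunit genes, and the degradation of proteins by the proteasome returns amino acids, cysteine among them, to the cell.

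In the libraries, 34836014 to 61654861 reads lay on genes, as recovered from the normalised values. A normalised read count here is the read count divided by a size factor of the library. All 10 marker genes chosen for HEK293T passed the filter on low values (at least 10 normalised read counts in at least 3 of the libraries). Of the leukocyte genes PTPRC and CD3E had a mean of 0 in complete medium and CD14 reached 19.4, and of the hepatocyte genes APOB had a mean of 0 and ALB 15.4. Mitochondrially encoded genes took 4.51 to 5.05% of reads in complete medium, 5.15 and 5.71% in cysteine-free medium and 0.117 to 0.146% in excess medium. With poly(A) RNA from whole cultures, fewer cells and less RNA per cell cannot be told apart, and a level is a share of each library.

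Of the 53 proteasome genes, 50 passed the filter. The 3 removed were PSMB8, the beta5i subunit of the immunoproteasome, PSMB11, the beta5t subunit of thymic epithelium, and PSMA8, the alpha4s subunit of the testis. PSMB8 had 2.28 and 2.18 normalised read counts in the cysteine-free libraries, a mean of 6.44 in the complete and of 5.98 in the excess libraries, and PSMA8 and PSMB11 had a mean of 0.51 and 0.55 in complete medium. The core of these cells was therefore described by the constitutive subunits PSMA1 to PSMA7 and PSMB1 to PSMB7, with low levels of PSMB10 and traces of PSMB9. For 26 of the 53 genes, at least some exon bases lie under another annotated gene. Their values may include reads of the neighbour, and the strand setting of the counting was not given in the sources used here.

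Levels were first compared between genes per kilobase of the canonical transcript in complete medium, in normalised read counts per kilobase, and again over all annotated exon bases of each gene, a length chosen after seeing the data. The order of the genes depended on that choice. In the constitutive beta ring they ran from 1553 for PSMB2, the beta4 subunit, to 8821 for PSMB4, the beta7 subunit, a span of 5.68 times. Over all exon bases the same genes were lowest and highest, at 1518 and 3811, but the span was 2.51 times, and before division by length PSMB2 had the second highest mean of the ring, at 6872. In the alpha ring the span was 4.90 times, from 1320.1 for PSMA5 to 6469 for PSMA7, and over all exon bases it was 7.94 times, from 447 for PSMA2 to 3552 for PSMA7. The ATPases ranged from 1270.2 for PSMC6 to 4877 for PSMC5, and over all exon bases PSMC3 was highest, at 2974. The lid ranged from 1342 for PSMD12 to 6290.0 for SEM1, a very small acidic protein with a canonical transcript of 458 bases, whereas over all exon bases SEM1 was the lowest lid gene, at 270.0. The immunoproteasome subunits were lower than every constitutive beta gene by either length, at 622 for PSMB10 and 33.0 for PSMB9 per kilobase of canonical transcript. Of the chaperones of the 19S base, PSMD10 stood at 2131 and PSMD9 at 638, whereas PSMD5, which binds the ATPase PSMC2, was at 8.57, with 29.4, 28.4, 15.2 and 42.8 normalised read counts in the 4 complete libraries. PSMD5 shares no exon bases with another gene.

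Summed over all proteasome genes, the level per kilobase was lower in both altered media than in any complete library. It was 83.8 and 86.8% of the mean of complete medium in the cysteine-free libraries and 79.0 to 81.7% in the excess libraries, against 97.8 to 104.8% in the complete libraries. As a share of all reads on genes, the genes took 0.507 to 0.524% in complete medium, 0.434 and 0.441% in cysteine-free medium and 0.440 to 0.447% in excess medium. The alpha ring stood at 82.2% ± 2.6 (SD, n = 2) of complete medium without cysteine and at 77.1% ± 1.9 (SD, n = 4) in excess. For the 19S cap the values were closer to each other, at 86.2% ± 2.6 (SD, n = 2) and 84.7% ± 1.3 (SD, n = 4). The chaperones of the 19S base had the widest gap of the role groups between the altered media, in percentage points of complete medium, at 93.7% ± 0.042 (SD, n = 2) without cysteine and 66.5% ± 1.7 (SD, n = 4) in excess. Most of this sum is 1 gene, PSMD10, at 2131 per kilobase in complete medium against 638 for PSMD9 and 8.57 for PSMD5. From cysteine-free replicate 1 to 2 PSMD10 went from 2921 to 3017 and PSMD9 from 1648 to 1485, so the small SD of the sum hides opposite differences. These sums are descriptions and were not tested.

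**Figure D1:**
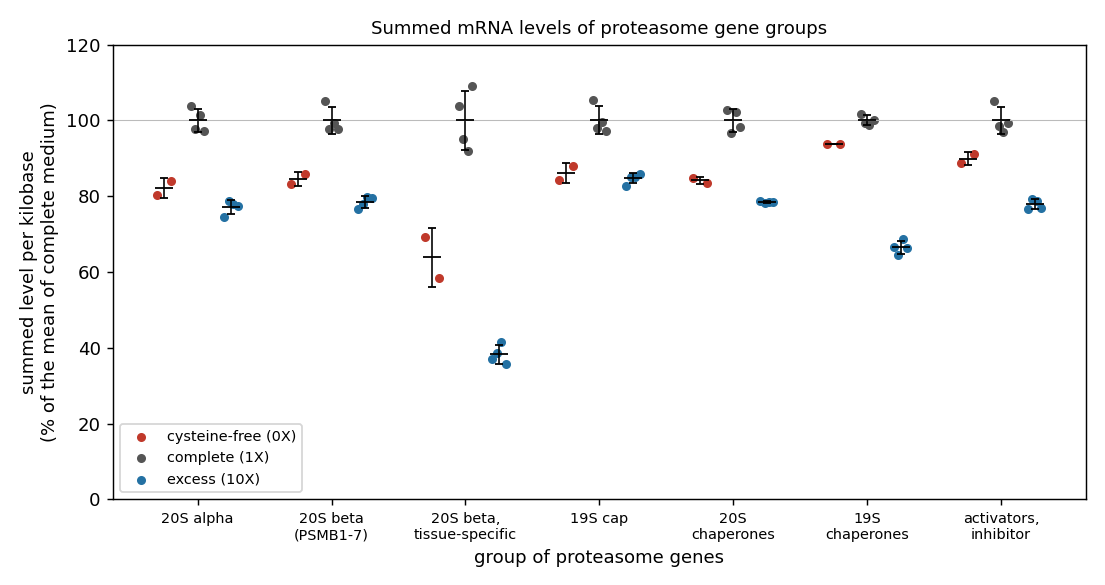
Summed level per kilobase of each group of proteasome genes, as a percentage of the mean of the complete libraries (vertical axis), for each library in cysteine-free, complete and excess medium. Points are libraries, and bars are the mean and SD; every cysteine-free and excess point lies below all complete points of its group, with the excess points of the 19S chaperones at 64.5 to 68.6%.

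The first comparison asked which proteasome transcripts differed after 24 h without cysteine. Of the 50 genes tested, 25 were lower than in complete medium at an adjusted p of 0.01 or less and 0 were higher. Without the filter on low values, 1 of 53 was called, PSMC2, and over all 78894 rows 390 were called. Over all 29045 genes tested, 15.9% were called, 7.39% as higher and 8.51% as lower, and among genes with a mean of 1000 or more 19.5% were called lower. The median log2 fold change of the 50 genes was -0.23, against 0.00 for all genes tested, and 43 of the 50 estimates were below 0. At an unadjusted p under 0.05 limma gave 36 of the 50, 1 of them higher, and edgeR and DESeq2 on the recovered reads called 25 and 27, all lower. The changes were small: the lowest was -0.73, and no gene called was changed 2-fold. The count rests on 2 cysteine-free libraries. Without replicate 1 or 2 of that medium the median of the 50 genes was -0.214 or -0.275. Fewer were then called, both among these genes and over all genes tested.

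**Figure D2:**
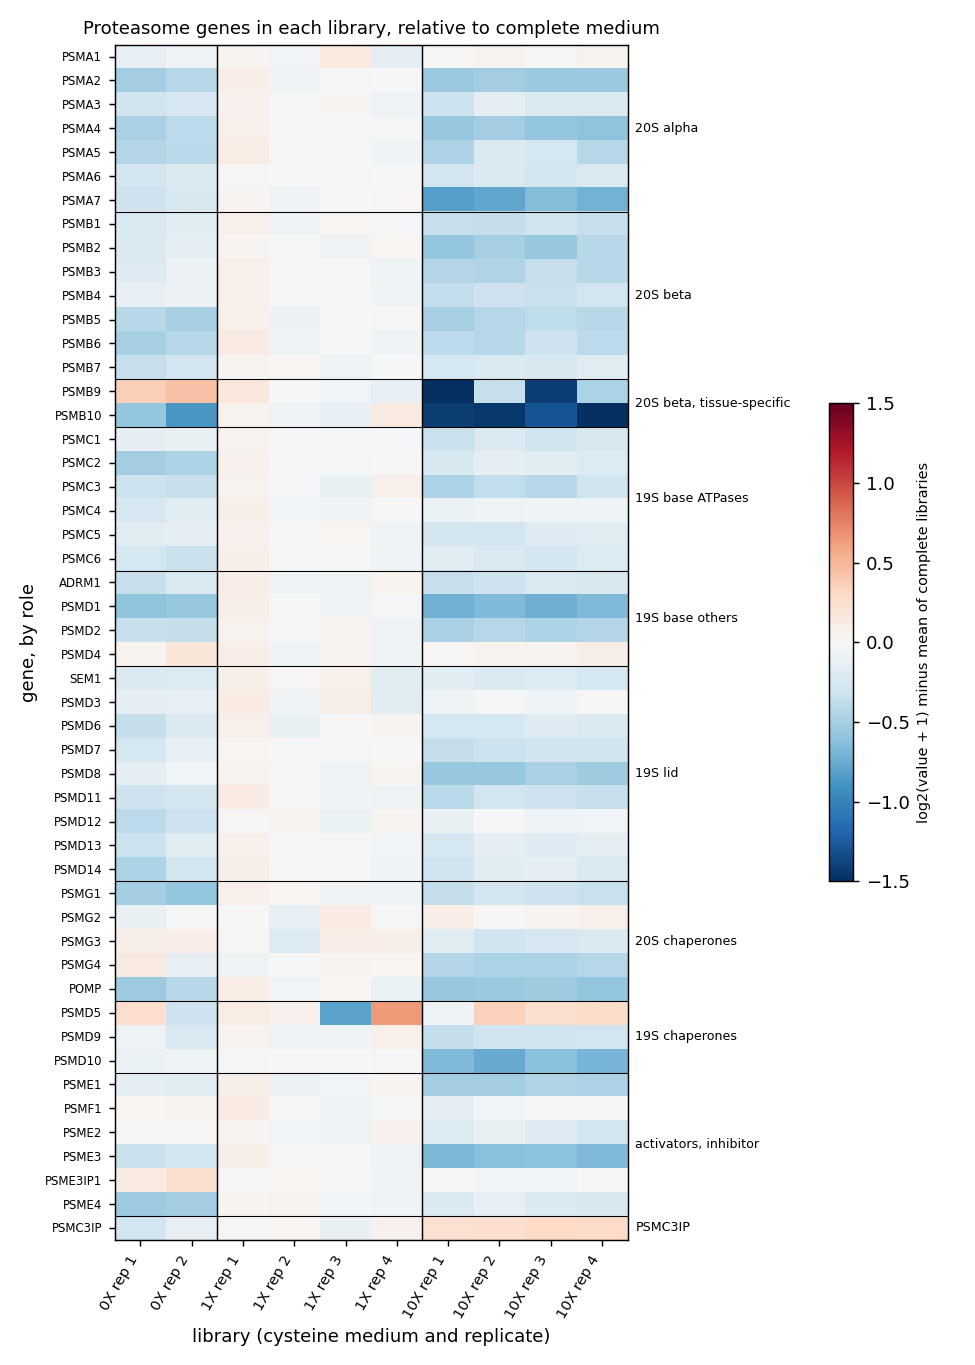
Level of each of the 50 proteasome genes tested in each library, as log2(value + 1) minus the mean of the complete libraries (colour scale, ending at -1.5 and 1.5), with genes in rows by role and libraries in columns by medium. Most rows are blue in both altered media, PSMB10 has the lowest fold change in excess, at -1.43, and PSMC3IP is the one row called higher in excess, at 0.27.

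In the alpha ring, whose amino-terminal tails form the gate of the core, 6 of 7 genes fell without cysteine and PSMA1 did not pass the test, at -0.09 (95% interval -0.25 to 0.07). The largest fall was that of PSMA2, the alpha2 subunit, at -0.48 ± 0.062 (SE, adjusted p = 0.000104), followed by PSMA4 at -0.44 and PSMA5 at -0.42. The whole canonical transcript of PSMA2 also lies in exons of a readthrough gene on the same strand. Of the canonical transcripts of PSMA1 and PSMA6, 67.0 and 81.4% lie under another gene on the same strand. PSMA7, the alpha4 subunit (chr20:62136733-62143440, reverse strand, GRCh38), had 5024 and 5285 normalised read counts without cysteine and 6417, 6009.9, 6182 and 6284 in complete medium. Both cysteine-free libraries were below all complete libraries, and the log2 fold change was -0.27 ± 0.053 (SE, adjusted p = 0.00189), a call lost without the filter on low values. Without cysteine-free replicate 1 or 2 it was -0.24 or -0.31 and no longer called.

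In the constitutive beta ring all 7 estimates were below 0, and 6 of the 7 genes had an unadjusted p under 0.05. The genes of the 3 active subunits fell, and the 4 genes of the subunits without an active site did not pass the test. The difference between these sets was noticed after the values were known and was not tested. PSMB5, the chymotrypsin-like beta5 subunit (chr14:23016543-23035230, reverse strand), had 3714 and 3512 normalised read counts without cysteine and 5251, 4668, 4939 and 5038 in complete medium. PSMB6, the caspase-like beta1 subunit (chr17:4796144-4798502, forward strand), had 2089 and 2197 against 3213, 2807, 2963 and 2859. PSMB7, the trypsin-like beta2 subunit (chr9:124353465-124415444, reverse strand), had 4351 and 4502 against 5684, 5618, 5264 and 5495. For all 3 genes the groups did not overlap, and cysteine-free cells held 72.7%, 72.5% and 80.3% of the complete level. The log2 fold changes were -0.46 ± 0.06 (SE, adjusted p = 0.000107) for PSMB5, -0.46 ± 0.067 (SE, adjusted p = 0.00024) for PSMB6 and -0.32 ± 0.054 (SE, adjusted p = 0.000799) (95% interval -0.43 to -0.20) for PSMB7. All 3 calls were lost without the filter on low values. These calls did not all hold with 1 cysteine-free library: PSMB6 and PSMB7 were lost without replicate 1, at -0.43 and -0.29, and PSMB5 and PSMB7 without replicate 2, at -0.42 and -0.34. The structural subunits were at -0.20 for PSMB1 (95% interval -0.32 to -0.08), -0.18 for PSMB2, -0.14 for PSMB3 and -0.11 for PSMB4 (-0.22 to 0.00), with adjusted p from 0.0198 to 0.14; DESeq2 on the recovered reads called PSMB1 as well. PSMB1 to PSMB7 share no exon bases with another gene.

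PSMB10, the beta2i subunit that replaces PSMB7 in the immunoproteasome, showed the lowest estimate of the 50 genes. It lies at chr16:67934506-67936864 on the reverse strand, and 56.1% of its canonical transcript lies under exons of an unnamed readthrough gene on the same strand. It had 404 and 332 normalised read counts without cysteine and 630.2, 581, 556 and 665 in complete medium. The log2 fold change was -0.73 ± 0.11 (SE, adjusted p = 0.00036). Without cysteine-free replicate 2 it was -0.58 and no longer called, and the call was also lost without the filter on low values. PSMB9, the beta1i counterpart of PSMB6 (chr6:32844136-32859851, forward strand), had 43.3 and 45.8 against 37.8, 33.4, 32.5 and 30.7, and its log2 fold change of 0.40 had a wide interval of -0.18 to 0.98 and did not pass the test (adjusted p = 0.299). Its neighbour PSMB8 overlaps it on the other strand.

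The upstream bases of PSMB10 and PSMC3IP are shown because these genes had the largest called decrease and the only called increase among the proteasome genes against complete medium. They are the 250 bases before the RefSeq gene start on GRCh38.p14, read 5′ to 3′ on the gene's strand, which is the reverse strand for both genes. Capitals mark matches to CCAAT or its complement ATTGG, or to TGACNNNGC or its complement GCNNNGTCA, the core of the antioxidant response element that NFE2L1 and NFE2L2 bind with small MAF proteins. For PSMC3IP the first of the RefSeq starts listed was used.
PSMB10 upstream, chr16:67936851-67937100: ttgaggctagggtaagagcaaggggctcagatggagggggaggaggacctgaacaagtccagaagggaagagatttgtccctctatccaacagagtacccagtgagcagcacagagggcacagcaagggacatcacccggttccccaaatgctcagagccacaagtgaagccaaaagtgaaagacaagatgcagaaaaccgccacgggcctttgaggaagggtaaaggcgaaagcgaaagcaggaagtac
PSMC3IP upstream, chr17:42577832-42578081: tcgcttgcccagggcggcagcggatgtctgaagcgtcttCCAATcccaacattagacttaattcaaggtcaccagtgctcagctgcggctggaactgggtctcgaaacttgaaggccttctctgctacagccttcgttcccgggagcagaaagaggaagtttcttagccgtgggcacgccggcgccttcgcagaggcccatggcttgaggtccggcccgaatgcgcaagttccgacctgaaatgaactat
PSMB10 held neither motif in these bases, which says only that those letters are not in this window. PSMC3IP held a CCAAT match that began 211 bases before the start used. The window of its other RefSeq start, not shown, held a CCAAT match 54 bases before that start. In windows of 300 bases that also take in the first bases of the transcript, TGACNNNGC or its complement was present for 17 of the 47 proteasome genes with an entry (36.2%), against 16.1% of the 27305 symbols with one. The CCAAT box was present for 24 of the 47 (51.1%), against 39.7%, and no match of one motif overlapped one of the other. A match is a string of letters and not evidence of binding.

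Among the 6 ATPases of the cap base, the motor that unfolds substrates, 3 fell without cysteine. PSMC2, the Rpt1 subunit (chr7:103328570-103370346, forward strand), had 2893 and 2978 normalised read counts without cysteine and 4326, 4075, 4058 and 4126 in complete medium. The log2 fold change was -0.50 ± 0.056 (SE, adjusted p = 3.37e-05). PSMC3 and PSMC6 were at -0.33 and -0.30, and PSMC4, PSMC5 and PSMC1 at -0.22, -0.15 and -0.12 did not pass the test.

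Of the other 4 base genes, which hold ubiquitin receptors and the large scaffold subunits, 3 fell. PSMD1, the Rpn2 scaffold on which the receptor ADRM1 docks (chr2:231056845-231173116, forward strand), had 5356 and 5527 without cysteine and 8667, 8183, 7847 and 8012 in complete medium. The cysteine-free level was 66.6% of complete, at -0.59 ± 0.054 (SE, adjusted p = 6.58e-06), a call lost without the filter on low values. ADRM1 itself, the Rpn13 receptor (chr20:62302093-62308862, forward strand), had 3707 and 4027 against 5045, 4474, 4488 and 4920.4 and was at -0.29 ± 0.066 (SE, adjusted p = 0.00502), a call lost when any of 4 libraries was left out, with quantile normalization, at -0.23, and without the filter on low values. PSMD2, the Rpn1 scaffold, was at -0.35. PSMD4, the Rpn10 receptor, was at 0.11 (95% interval -0.02 to 0.25) and did not pass the test.

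The lid removes ubiquitin chains through its metalloprotease PSMD14, and 5 of its 9 genes fell. PSMD14 had the lowest estimate, -0.38 ± 0.067 (SE, adjusted p = 0.000961), followed by PSMD12 at -0.35, PSMD11 at -0.29, PSMD6 at -0.29 and PSMD13 at -0.26. PSMD8, the Rpn12 subunit that joins the lid last (chr19:38374563-38383850, forward strand), had 5483 and 5890.1 without cysteine against 6252, 6025, 5732 and 6199.9. These groups overlapped, and its estimate of -0.09 did not pass the test (adjusted p = 0.263). SEM1 (chr7:96481626-96709880, reverse strand) had 2482 and 2492 against 3063, 2903, 3018 and 2539, and its estimate of -0.21 did not pass either (adjusted p = 0.0538). SEM1 was called with the replicate block, at -0.26, and without complete replicate 4, at -0.27.

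Of the 5 chaperones of the 20S core, 2 fell. POMP, which is enclosed in the half-core and is the first substrate of the finished particle (chr13:28659065-28678959, forward strand), had 1925 and 2089.5 normalised read counts without cysteine and 3039, 2731, 2868 and 2630.3 in complete medium. PSMG1, which forms with PSMG2 the chaperone of the alpha ring (chr21:39174769-39183488, reverse strand), had 2182 and 2091 against 3275, 3195, 3001 and 3010.0. The log2 fold changes were -0.49 ± 0.07 (SE, adjusted p = 0.00023) for POMP and -0.55 ± 0.062 (SE, adjusted p = 3.81e-05) for PSMG1. Both calls were lost without the filter on low values. POMP was at -0.43 and no longer called without cysteine-free replicate 1. The partner PSMG2 was at -0.06 (95% interval -0.25 to 0.13), and PSMG3 and PSMG4 were at 0.09 and 0.00, all without a call. Of the 3 chaperones of the 19S base limma called 0, with 0 at an unadjusted p under 0.05 and 0 called by edgeR or DESeq2. PSMD10, known as gankyrin, was at -0.08 (95% interval -0.20 to 0.04).

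Of the 6 activators and related genes, 2 fell. PSME4, the PA200 activator (chr2:53864069-53970993, reverse strand), had 4477 and 4529 normalised read counts without cysteine and 6736, 6751, 6324 and 6287 in complete medium, at -0.53 ± 0.054 (SE, adjusted p = 1.46e-05). PSME3, the nuclear PA28 gamma activator (chr17:42824385-42843760, forward strand), had 8076 and 8449 against 10873, 10122, 10007 and 9877, at -0.31 ± 0.053 (SE, adjusted p = 0.000892). Neither call held without the filter on low values. PSME3 was no longer called without cysteine-free replicate 1 or 2, at -0.27 or -0.34. The remaining genes gave no call: PSME1 and PSME2, the interferon-inducible PA28 pair, were at -0.15 and 0.00, the inhibitor PSMF1 at 0.04 and PSME3IP1, which binds PSME3, at 0.18. PSMC3IP, a meiotic recombination factor that binds PSMC3 and is no subunit, was at -0.21 (adjusted p = 0.049).

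**Figure D3:**
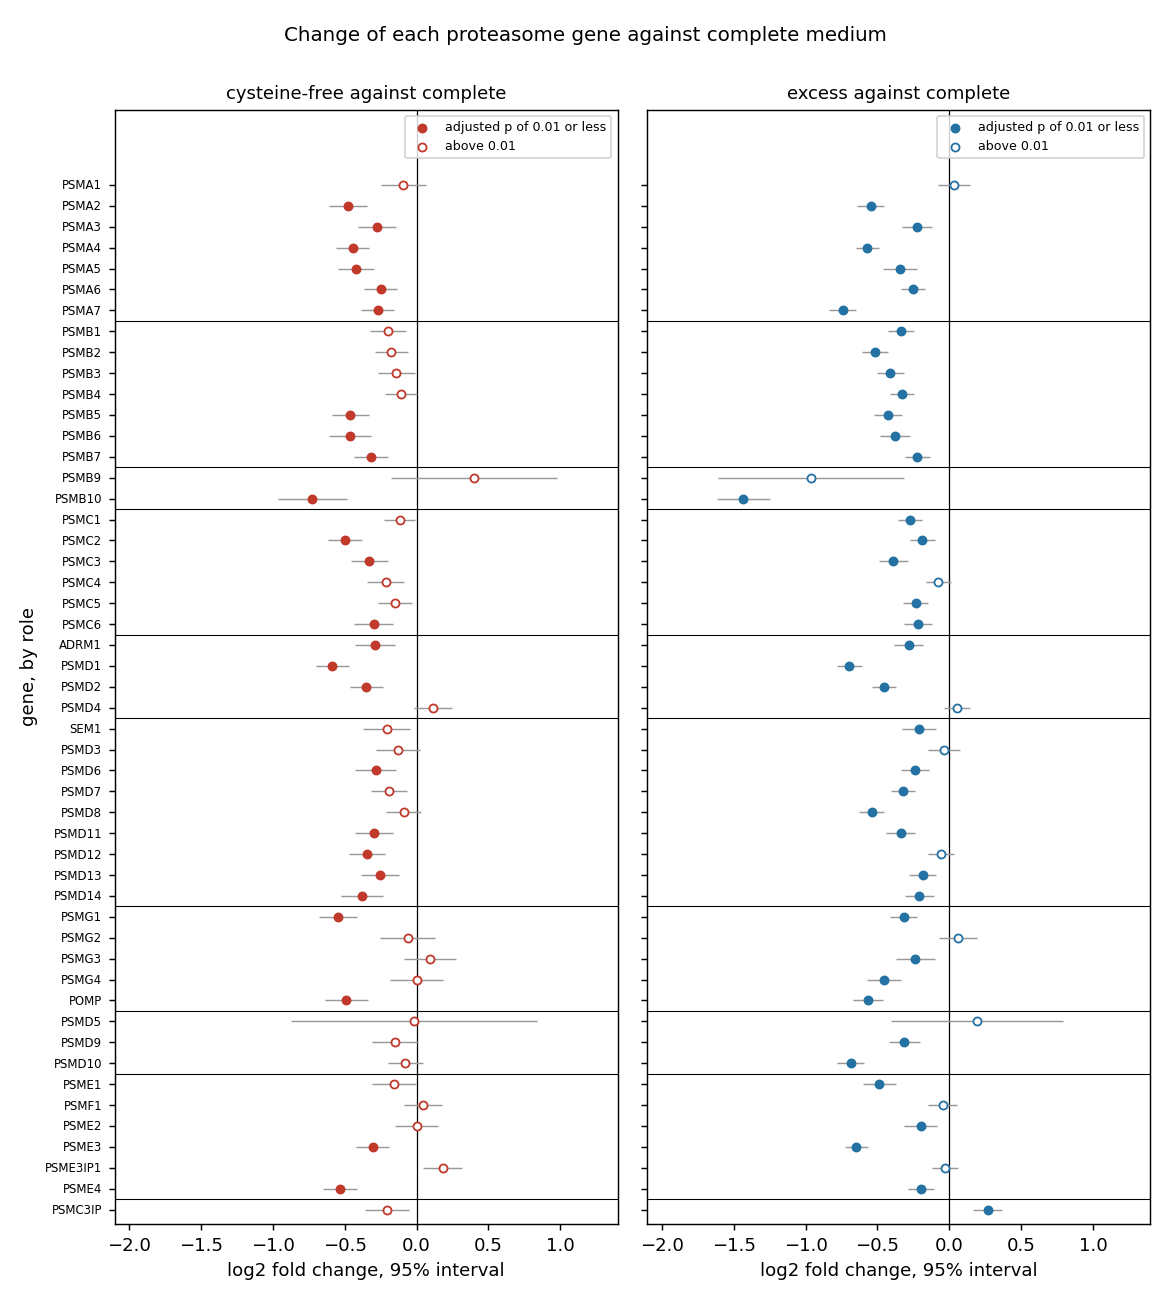
Log2 fold change of each proteasome gene (rows, by role) in cysteine-free and in excess medium against complete medium, with its 95% interval; filled points passed an adjusted p of 0.01. In cysteine-free medium PSMB5, PSMB6 and PSMB7 are filled while PSMB1 to PSMB4 are open, and in excess medium all 7 are filled and below 0.

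The second comparison asked the same of excess cysteine, against the same complete libraries. Of the 50 genes, 39 were lower and 1 was higher, and the single increase was that of PSMC3IP. The response of the transcriptome was broad, with 46.0% of all genes tested called, 23.1% higher and 22.9% lower, and 38.8% called lower among genes with a mean of 1000 or more. The median log2 fold change of the proteasome genes was -0.30, against 0.01 for all genes tested. Scaling to equal totals moved the median of all genes by 0.10 and their share called higher from 50.3 to 61.8% of the calls, and then 28 proteasome genes were lower and 2 higher, the second being PSMD4. With equal totals over nuclear genes, which sets aside the gap in mitochondrial reads, 36 were lower and 1 higher.

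Within the alpha ring 6 of 7 genes fell, and PSMA1 was at 0.03 (95% interval -0.08 to 0.14). PSMA7 had 3513, 3613, 3949.7 and 3816 normalised read counts in excess medium, below every complete and every cysteine-free library. Its log2 fold change of -0.74 ± 0.044 (SE, adjusted p = 3.44e-10) left 59.8% of the complete level and was the largest fall among the constitutive core genes. PSMA4 and PSMA2 followed at -0.57 and -0.55.

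All 7 genes of the constitutive beta ring fell. PSMB2 had 4583, 4872, 4626 and 5141 normalised read counts against 7085, 6769.6, 6635 and 6999.8 in complete medium and 5899 and 6263 without cysteine. Its 3 groups did not overlap, and excess against complete gave -0.52 ± 0.044 (SE, adjusted p = 2.67e-08); the comparison without cysteine gave -0.18 and did not pass the test. PSMB5 had 3531, 3709, 3831 and 3722, at -0.43 ± 0.045 (SE, adjusted p = 3.72e-07). PSMB6 had 2255, 2204, 2382 and 2258, at -0.38 ± 0.05 (SE, adjusted p = 5.66e-06). PSMB7 had 4607, 4701, 4667 and 4929, at -0.22 ± 0.04 (SE, adjusted p = 0.00016), and its call was lost with equal totals, at -0.12. The excess values of PSMB5 overlapped its cysteine-free values, and those of PSMB6 and PSMB7 lay just above theirs.

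PSMB10 fell further than any other proteasome gene and was the one gene changed more than 2-fold. The excess libraries had 225, 222, 247 and 206 normalised read counts, a mean of 225 ± 16.9 (SD, n = 4). The complete libraries had a mean of 608 ± 48.9 (SD, n = 4) and the cysteine-free libraries of 368 ± 51.5 (SD, n = 2). Every excess library was below every other library, at 37.1% of complete and a log2 fold change of -1.43 ± 0.086 (SE, adjusted p = 3.7e-10). PSMB9 had 10.3, 26.1, 11.9 and 23.8, which is below every complete library, but at this level the 4 excess libraries differed among themselves by more than 2-fold and the estimate of -0.96 missed the threshold (adjusted p = 0.0128). That call depends on the setting: it passed with a pseudocount of 10, in the fit of all 3 groups, with quantile normalization and without excess replicate 2 or 4.

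In the base of the cap 5 of 6 ATPase genes fell in excess medium, with PSMC3 lowest at -0.39 ± 0.048 (SE, adjusted p = 2.77e-06), and PSMC4 did not pass the test at -0.08 (95% interval -0.16 to 0.01). PSMC2 had 3504, 3783, 3679 and 3608, a smaller fall than without cysteine, at -0.19 ± 0.042 (SE, adjusted p = 0.00105), and it was not called with equal totals, at -0.08. PSMD1 had 4972, 5155, 4918 and 5157, below every complete library, at -0.69 ± 0.04 (SE, adjusted p = 2.53e-10). ADRM1 had 3716, 3811, 4024 and 3988, at -0.28 ± 0.048 (SE, adjusted p = 8.61e-05). PSMD2 was at -0.46, and PSMD4 again gave no call, at 0.05 (95% interval -0.04 to 0.15).

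In the lid 7 of 9 genes fell, and PSMD8 led them. It had 4086, 4075, 4301 and 4178 normalised read counts, all below the lowest complete library, at -0.54 ± 0.041 (SE, adjusted p = 6.81e-09). SEM1 had 2581, 2482, 2485 and 2398, overlapping the complete libraries, at -0.21 ± 0.056 (SE, adjusted p = 0.00439), and this call was lost under 9 of the other settings. PSMD12 and PSMD3, at -0.06 and -0.03, did not pass the test, with intervals of -0.15 to 0.03 and -0.15 to 0.08.

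Among the chaperones 6 of 8 genes fell. PSMD10 (chrX:108084207-108091549, reverse strand), an ankyrin-repeat protein that holds the ATPase PSMC4 during assembly of the base, had 1978, 1859, 2025 and 1931 normalised read counts in excess medium, against 3169, 3153, 3124 and 3083 in complete medium and 2921 and 3017 without cysteine. The excess libraries stood apart from all the others, at 62.2% of complete and -0.69 ± 0.044 (SE, adjusted p = 8.75e-10). POMP had 1903, 1908, 1937 and 1865, at -0.56 ± 0.05 (SE, adjusted p = 4.73e-08), and PSMG4 was at -0.45, PSMG1 at -0.32, PSMD9 at -0.31 and PSMG3 at -0.24. PSMG2 and PSMD5 gave no call, and the interval of PSMD5, -0.41 to 0.79, shows how little its low counts can resolve.

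Among the activators 4 of 6 genes fell. PSME3 had 6403, 6589.5, 6679 and 6436 normalised read counts, at -0.65 ± 0.039 (SE, adjusted p = 3.88e-10), and PSME1 was at -0.49, PSME4 at -0.20 and PSME2 at -0.20. PSMF1 and PSME3IP1, at -0.05 and -0.03, gave no call. PSMC3IP (chr17:42572310-42577831, reverse strand) had 2529.9, 2583, 2664 and 2652 in excess medium, above all 4 complete libraries at 2197, 2206, 2006 and 2264 and both cysteine-free libraries at 1776 and 1988. Its log2 fold change was 0.27 ± 0.048 (SE, adjusted p = 0.000152), and 57.2% of its canonical transcript lies under exons of genes on the other strand.

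Because both comparisons used the same complete libraries, the difference between the altered media was tested directly, as cysteine-free minus excess. Of the 50 genes 23 were called, 16 higher without cysteine and 7 lower, close to the 48.0% of all genes tested that were called (23.6% higher and 24.4% lower) and below the 69.2% among genes with a mean of 1000 or more. With equal totals the split turned to 12 higher and 14 lower, so the balance of directions depends on the scaling. The 5 largest increases and 5 largest decreases among called genes with a mean of 100 or more kept their call and direction in the 3 other scalings tried. Without the filter on low values, PSMB10, PSMG4, PSMG1 and PSMD12 were no longer called in this comparison, with the same estimates and adjusted p from 0.0114 to 0.0204.

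The genes higher without cysteine than in excess were led by PSMB9 at 1.36 (95% interval 0.60 to 2.13), from low counts, and by PSMB10 at 0.71 ± 0.11 (SE, adjusted p = 6.62e-06). PSMD10, at 0.61 ± 0.05 (SE, adjusted p = 1.44e-10), PSMA7, at 0.47 ± 0.048 (SE, adjusted p = 6.59e-09), and PSMD8, at 0.45 ± 0.043 (SE, adjusted p = 2.59e-09), were also higher. Without cysteine these 3 genes stood at 94.8%, 82.8% and 94% of complete medium, and in excess at 62.2%, 59.8% and 68.8%. PSMG4, a chaperone that works with PSMG3 on the alpha ring (chr6:3231403-3303373, forward strand), had 1121 and 938 normalised read counts without cysteine, 973, 1032, 1049.7 and 1044 in complete medium and 753, 737, 735 and 763 in excess, at 0.46 ± 0.071 (SE, adjusted p = 5.59e-06). In the beta ring all 4 structural subunits were called, from 0.14 for PSMB1 through 0.22 for PSMB4 and 0.27 for PSMB3 to 0.34 for PSMB2. The catalytic PSMB5, PSMB6 and PSMB7 were not called, at -0.03 (95% interval -0.13 to 0.06), -0.09 (-0.19 to 0.02) and -0.09 (-0.18 to -0.01). With equal totals PSMB1 was no longer called, and PSMB6 and PSMB7 were called as lower without cysteine, at -0.17 and -0.18.

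The genes lower without cysteine than in excess included PSMC3IP at -0.47 ± 0.052 (SE, adjusted p = 2.34e-08) and 6 genes of the proteasome. PSME4 had 5633, 6008, 5614 and 5519 normalised read counts in excess against 4477 and 4529 without cysteine, at -0.34 ± 0.042 (SE, adjusted p = 2.14e-07). PSMC2 was at -0.31 ± 0.045 (SE, adjusted p = 1.97e-06) and PSMG1, with 2437, 2586, 2512 and 2475 in excess, at -0.23 ± 0.048 (SE, adjusted p = 0.000249). PSMD12, the Rpn5 lid subunit (chr17:67337916-67366605, reverse strand), had 4466 and 4718 without cysteine, 5919, 6007, 5441 and 6009 in complete medium and 5401, 5807, 5549 and 5659.7 in excess, at -0.29 ± 0.043 (SE, adjusted p = 2.57e-06). The lid protease PSMD14 and the ATPase PSMC4 had smaller differences, at -0.17 and -0.14. For PSMD1, PSMA2 and POMP, which were lower in both altered media than in complete medium, the direct differences of 0.11, 0.07 and 0.08 did not pass the test, with intervals of 0.02 to 0.19, -0.03 to 0.16 and -0.03 to 0.18.

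**Figure D4:**
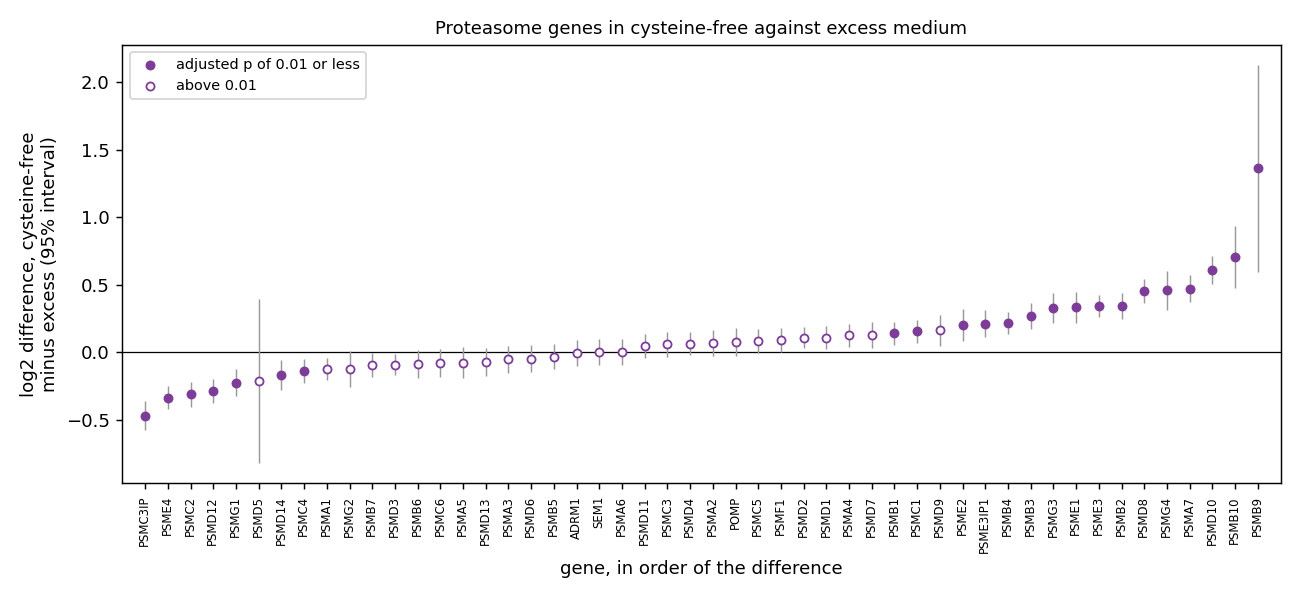
Log2 difference between cysteine-free and excess medium for each proteasome gene (horizontal axis, in order of the difference), with its 95% interval; filled points passed an adjusted p of 0.01. The 7 filled points below 0 run from PSMC3IP at -0.47 to PSMC4 at -0.14, and the 16 above 0 end with PSMD10 at 0.61, PSMB10 at 0.71 and PSMB9 at 1.36.

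Genes around the proteasome were read from lists chosen with earlier results of these data known. Their counts stand beside 15.9% of all genes tested called without cysteine and 46.0% in excess, or 30.1 and 69.4% among genes with a mean of 1000 or more. Of 11 genes of the NFE2L1 pathway, 1 rose and 4 fell without cysteine, and 5 rose and 4 fell in excess, which is 45.5 and 81.8% of the list called. NFE2L1 itself had 8675 and 9283 normalised read counts without cysteine, 7097, 7489.8, 6672 and 7484 in complete medium and 10054, 10401, 10326 and 10272 in excess. It was thus higher in both altered media, at 0.32 ± 0.059 (SE, adjusted p = 0.00128) and 0.52 ± 0.041 (SE, adjusted p = 1.25e-08), while most of the subunit genes were lower. The protease DDI2, which cleaves NFE2L1 into its active form, fell, at -0.48 and -0.34, as did the segregase VCP, which draws NFE2L1 out of the endoplasmic reticulum, at -0.48 and -0.44. The related factor NFE2L3 was at -0.32 (adjusted p = 0.0417) without cysteine and fell in excess, at -0.40. Of the small MAF partners, MAFK had the largest fall of the list without cysteine, at -0.87 ± 0.092 (SE, adjusted p = 2.03e-05), and was at 0.16 in excess (adjusted p = 0.0503). MAFF was at -0.48 without cysteine (adjusted p = 0.13) and rose in excess, at 1.08 ± 0.14 (SE, adjusted p = 4.43e-06). MAFG was at -0.46 without cysteine and 1.69 in excess, and the direct difference was -2.15 ± 0.052 (SE, adjusted p = 8.28e-21). SEL1L, an adaptor of the ligase that degrades NFE2L1, was called only in excess, at 0.96, with a direct difference of -0.81 ± 0.047 (SE, adjusted p = 2.13e-13).

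Of 17 proteasome-bound factors tested, 1 rose and 1 fell without cysteine, and 8 rose and 4 fell in excess. These are 11.8 and 70.6% of the list, below the share of all genes without cysteine and close in excess to the share among the higher-expressed genes, and the counts show nothing particular to the list. UBE3C, a ligase that extends chains on the proteasome, fell without cysteine, at -0.46 ± 0.052 (SE, adjusted p = 3.62e-05). In excess the largest increases were those of ZFAND2A, an arsenite-inducible cap-binding protein, at 0.63 ± 0.088 (SE, adjusted p = 1.03e-05), and ZFAND5, an activator of the particle, at 0.61 ± 0.041 (SE, adjusted p = 1.72e-09), and PAAF1, an ATPase chaperone, fell at -0.39 ± 0.069 (SE, adjusted p = 0.00012). Of 6 ubiquitin genes and activating enzymes, 1 fell without cysteine, and 2 rose and 2 fell in excess. UBA1, the main ubiquitin-activating enzyme, fell in both, at -0.23 and -0.56. For the COP9 signalosome, a complex related to the lid, 4 of 10 genes fell in each comparison, with COPS9 lowest at -0.70 and -0.64. In excess this share is close to the 38.8% called lower among genes with a mean of 1000 or more, and without cysteine 19.5% of such genes were called lower.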

How the data were processed

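Poly(A) RNA was sequenced as paired reads from a directional library kit. The authors aligned reads with STAR 2.7.10b to GRCh38, counted them per gene (their methods name featureCounts, the processing notes HTSeq) and divided each count by a DESeq2 1.42.0 size factor, and these normalised signal values were deposited. The methods state that reads over several genes were discarded, yet PSMA2, whose canonical transcript lies wholly in exons of another gene, had a mean of 3746 in complete medium. In each library 100% of values were whole multiples of a step (tolerance 0.01), which recovered the reads.

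Rows with at least 10 in 3 or more libraries were kept. Log2(value + 1) was fitted with limma 3.58.1 (a moderated linear model with an intensity trend, 2-sided) under R 4.3.3 on the groups compared, in place of the DESeq2 test of the authors because the unit is not a raw count. P-values were adjusted by Benjamini-Hochberg over all genes kept and called at 0.01. Fold changes are on the log2(value + 1) scale. An exact permutation test of single genes cannot go below 0.067 for 2 against 4 libraries or 0.029 for 4 against 4. On simulated data for the cysteine-free against complete comparison, with 200 of 29045 genes changed, 94 of 100 2-fold and 64 of 100 1.5-fold changes were recovered with 3 false calls. Most changes reported here were smaller, with a median of -0.23, and 15.9% of all genes tested were called in the data. The simulation therefore does not show how well such changes are found. Replicates differed beyond sampling noise (chi-square per degree of freedom 3.53 to 14.7). Whether the number of libraries or depth limits the precision more was not tested.

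Genes with values in every library were the 5 largest called increases and decreases per comparison (mean of 100 or more, groups not overlapping), the largest change per role, PSMB5 to PSMB10 (other than PSMB8, which the filter removed), POMP, ADRM1 and SEM1. For the genes chosen as the 5 largest, groups that did not overlap were a condition of the choice and are no support. Genes of other lists were named by size of change, at most 3 per direction, list and comparison with complete medium, and some are not reported here. Members and lists were chosen with earlier results of these data known. Alternatives tried were a pseudocount of 0.5 or 10, no filter, a minimum of 50, equal totals, equal totals over nuclear genes, quantile normalization, 1 fit of all 3 groups, a replicate block, an adjusted p of 0.05, DESeq2 1.42.0 or edgeR 4.0.16 applied to recovered reads, at least 2-fold, each library left out, and, added after seeing the data, genes without shared exon bases. Positions are from GENCODE 44, and upstream sequences from RefSeq on GRCh38.p14.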

Additional observations from a re-analysis of the deposited data

Results flagged for a closer look

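One value among the proteasome genes described library by library lay far from its group. PSMD12 in complete replicate 3 had 5441 normalised read counts, while the other 3 complete libraries had 5919 to 6009, and its gap to the nearest library was 0.841 of the range of the group. In all 40 groups of 4 libraries were examined in this way, of which chance would mark about 2.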

How the results depend on the processing

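The numbers of proteasome genes called were 25, 40 and 23 of 50 in cysteine-free against complete, excess against complete and cysteine-free against excess medium. Without the filter on low values they were 1, 32 and 10 of 53, where 78894 rows instead of 29045 entered the fit. Over all rows 390, 9406 and 6877 were then called, against 4618, 13372 and 13954 with the filter. With a change of at least 2-fold the numbers of proteasome genes called were 0, 1 and 1. Among the 25 genes tested without exon bases under another gene, an alternative chosen after seeing the data, they were 14, 20 and 11. Leaving out a library gave 8 to 27 calls in the first comparison, 37 to 40 in the second and 19 to 22 in the third; in the first, the count was 8 without cysteine-free replicate 1 and 10 without replicate 2, and there the lone library is assumed to vary like the complete group. Over all genes tested, fewer were also called when either cysteine-free library was left out. The other alternatives stayed within 1.5 times each count. In the first comparison the 25 calls with edgeR were the same genes.

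The replicate numbers did not pair the libraries: correlations of the deviations of same-numbered libraries ran from -0.028 to 0.039. With the replicate block the counts were 27, 40 and 21. For the genes described library by library, 729 of 778 alternative estimates kept their direction and side of the threshold, 41 lost a call, 8 gained one and 0 reversed. The largest group of losses was in cysteine-free against complete medium without the filter or without a cysteine-free library, with the size of the estimates little changed, as for PSMB7 at -0.29 to -0.34. Dividing by all annotated exon bases, chosen after seeing the data, moved the order of levels between genes, while the summed level of all proteasome genes stayed at 84.9 and 80.0% of complete medium in cysteine-free and excess medium. Low counts limit PSMB9 and PSMD5.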
